A study of Mus musculus with 6 samples.

Results

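Macrophage marker genes were followed in RNA labelled as from spermatogonia of mice lacking Zfp145, beside WT. The 10 members were chosen by symbol: Laptm5, Cx3cr1, Csf1r, Adgre1, Cd68, Lyz2, C1qa, C1qb, Tyrobp and Acp5. Every probe set whose only annotated gene symbol was one of these was taken, which gave 19 probe sets of 36701 on the chips, and 10 genes of the 15964 named there. The Null group was labelled as total RNA of spermatogonia from Zfp145 knockout mice 1 week old on a 129sv/c57Bl6 background, and the WT group as the same material without the knockout. Zfp145, now Zbtb16 and also called PLZF, encodes a transcriptional repressor of undifferentiated spermatogonia. Each genotype was hybridised once to each of 3 chips with different contents (U74Av2, U74Bv2, U74Cv2). The 6 arrays therefore hold no replicates, no difference has a replicate check, no p-value is given, and the number of arrays limits the precision. Left unstated in the labels are the deleted stretch of Zfp145, how the spermatogonia were obtained, how many animals gave RNA, and whether all chips were given a single extract per genotype.

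Tissue macrophages live in the interstitium of the testis, beside the Leydig cells and on the outer surface of the seminiferous tubules. They depend on signalling through the CSF1 receptor, they take up and digest material in lysosomes, and they make the C1q chains that start the classical complement pathway. In adult mice they are known to contact the tubules over the sites where undifferentiated spermatogonia sit. In bulk RNA such as this, fewer cells of a type in the testis, fewer carried into the preparation and less RNA per cell cannot be told apart.

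Values are the authors' linear intensities, in arbitrary units that the authors scaled array by array, and they are not compared between probe sets or chips. Log2 ratios are Null over WT after a small further scaling, a shift of at most 0.02 on any chip. A floor stood at the 40th percentile of the chip (98.3 for U74Av2, 165 for U74Bv2, 124 for U74Cv2), and a probe set under it on 1 array gives only a bound. The error beside each ratio is how far the log2 ratios of a gene's several probe sets typically lie apart at that level of that chip. For dim, medium and bright probe sets it was 0.39, 0.21 and 0.15 (U74Av2), 0.35, 0.33 and 0.24 (U74Bv2), and 0.54, 0.43 and 0.30 (U74Cv2). It leaves out the spread between animals. The targeted gene, Zbtb16, read 158.1 in Null and 770.2 in WT on U74Av2, a log2 ratio of -2.29, and 510.8 in Null and 1156.8 in WT on U74Cv2, a log2 ratio of -1.20. Its other probe set on U74Av2, at 16.7 in Null and 50.6 in WT, lay under the floor. The 3' over 5' signal ratio of Actb was 2.72 to 3.15 on Null arrays and 2.95 to 3.15 on WT arrays.

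Most macrophage markers read slightly lower in Null than in WT. Of the 16 member probe sets on U74Av2, 11 lay above the floor on both arrays, 2 on 1 array and 3 on neither. Of the 11, 10 had a ratio below 0, against 50.7% of the 7082 probe sets above the floor on both arrays of that chip. Their ratios ran from -0.81 to 0.01 with a median of -0.22, while the median over all 7082 was 0.00. The single member probe set on U74Bv2 and both on U74Cv2 were lower in Null too, where 49.7% and 50.3% of all probe sets above the floor were. The sizes were small. In 7 of these 14 probe sets the ratio was smaller than the spread between probe sets of a gene, and in 3 of the 14 it was more than double that spread, namely those of Tyrobp, Acp5 on U74Bv2 and the dim one of Csf1r. Only the U74Bv2 probe set of Acp5 was at least 2-fold different, and it was lower in Null. Of the probe sets above the floor on at least 1 array of U74Bv2, 1.82% differed by as much in either direction. No member reached 2-fold on U74Av2 or U74Cv2, where 0.908% and 11.1% of probe sets did.

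**Figure D1:**
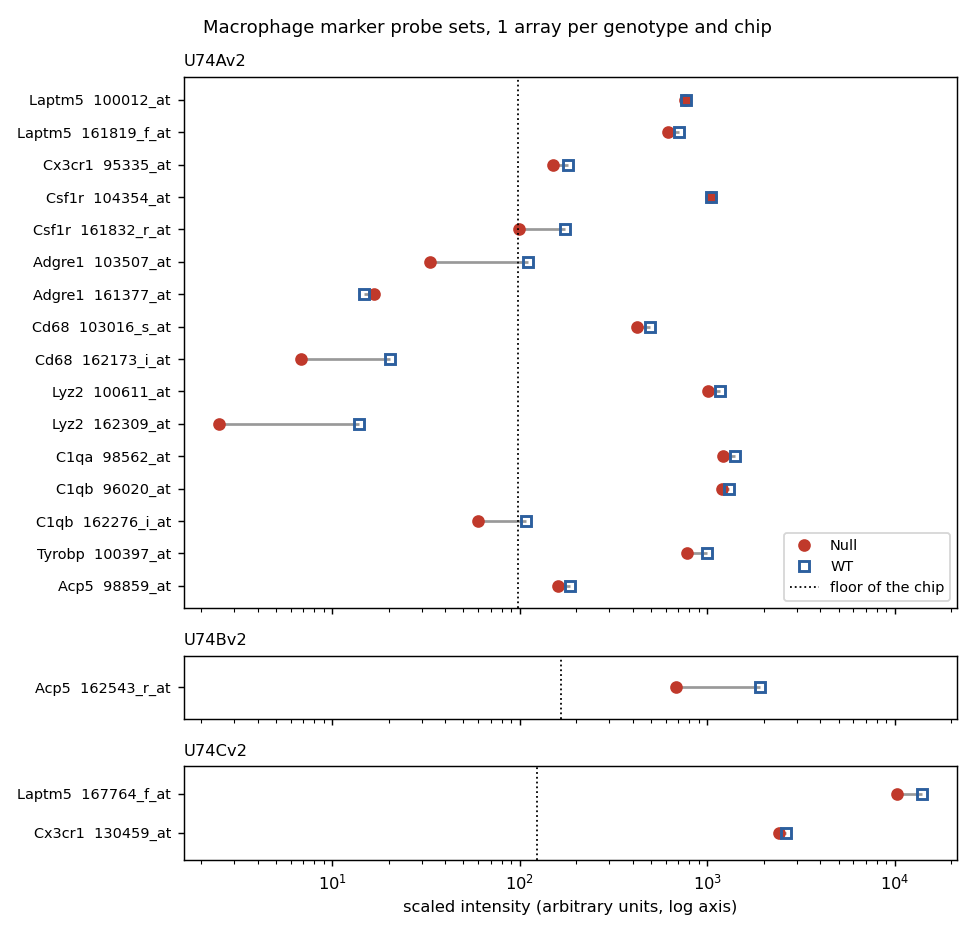
Scaled intensity (log axis, arbitrary units) of each of the 19 macrophage marker probe sets, with Null as filled red circles, WT as open blue squares, and the floor of the chip as a dotted line; each point is 1 array and chips were scaled separately. Null lies left of WT in most rows, with the widest gap above the floor for Acp5 on U74Bv2, at 685.3 in Null and 1898.5 in WT as deposited.

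The surface receptors differed between the genotypes by little, or only in dim probe sets. Csf1r encodes the receptor for CSF1 and IL-34, on which macrophage survival depends. Its probe set 104354_at read 1055.9 in Null and 1044.9 in WT, a log2 ratio of 0.01 with a spread of 0.15. Its second probe set, 161832_r_at, read 99.4 in Null and 174.2 in WT after scaling, a log2 ratio of -0.81 with a spread of 0.39. That probe set lay just above the floor in Null, and its suffix marks a design with relaxed rules of probe choice. With the floor at the 60th percentile only 104354_at remained above it on both arrays.

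Cx3cr1 encodes the receptor for fractalkine on monocytes and resident macrophages. On U74Cv2 its probe set 130459_at read 2437.5 in Null and 2638.6 in WT, a log2 ratio of -0.14 with a spread of 0.30. On U74Av2 95335_at read 151.6 in Null and 181.6 in WT, a log2 ratio of -0.27 with a spread of 0.39. Both probe sets were lower in Null, and neither by more than the spread.

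Adgre1 encodes F4/80, the classical surface antigen of mouse macrophages. Its probe set 103507_at read 33.5 in Null, under the floor, and 110.4 in WT, just above it, so Null was at least 1.12-fold lower. Its other probe set, 161377_at, read 16.8 in Null and 14.8 in WT, under the floor on both arrays, and gives no fold. Signal for F4/80 thus lay near or under the floor in both genotypes.

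Tyrobp encodes DAP12, the adaptor with an activation motif through which TREM2 and related myeloid receptors signal. Its only probe set, 100397_at, read 785.1 in Null and 999.2 in WT, a log2 ratio of -0.36 with a spread of 0.15. Among the 2361 probe sets of U74Av2 in the same level class, 6.27% had a ratio as low. Of the partner and signalling genes listed for it, 10 of 14 had a probe set of their own and 5 lay above the floor, 2 lower and 3 higher in Null, with a median of 0.04. Syk, the kinase recruited by the adaptor, stood at -0.23 on U74Av2, and Vav1, an exchange factor downstream of it, at -0.82 on U74Cv2, where the spread was 0.54. Another probe set of Vav1, on U74Av2, stood at 0.05.

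Both member chains of C1q were slightly lower in Null. C1qa, the A chain, read 1219.2 in Null and 1406.5 in WT, a log2 ratio of -0.22. C1qb, the B chain, read 1206.3 in Null and 1299.2 in WT with 96020_at, a log2 ratio of -0.12, and the spread was 0.15 for both. A further C1qb probe set, 162276_i_at, read 59.9 in Null and 107.6 in WT, so Null was at least 1.09-fold lower. C1qc, the third chain and no member, read 1472.7 in Null and 1949.7 in WT on U74Av2, a log2 ratio of -0.41. On U74Cv2 its other probe set went the opposite way, at 652.5 in Null and 460.5 in WT, a log2 ratio of 0.48 with a spread of 0.43. All 3 chains were thus lower in Null on U74Av2, while the only probe set of a C1q chain on U74Cv2 was higher. C1qa, C1qc and C1qb are neighbouring genes in RefSeq.

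Promoter sequences are shown where a searched motif was found, as the 250 bases before the start in the RefSeq table (GRCm38.p6). The search among the members left out a chromosome of that table. In the rest a promoter was found for 6 of the 10 members. A member with none here was not searched for motifs and may still have a promoter in RefSeq. The motifs were GAGGAA, the core bound by the myeloid factor PU.1, TGANTCA, the AP-1 site, TCANNTGA, the M-box bound by MITF and TFE factors, and TATAAA. Both strands were searched and no match overlapped another. GAGGAA stood in 23.3% of 32851 such windows, TGANTCA in 6.75%, TCANNTGA in 7.09% and TATAAA in 12.4%. Among the members GAGGAA was found in C1qb, Cd68 and Laptm5, and also in C1qc. The C1q windows are chr4:136886201-136886450 for C1qb and chr4:136892915-136893164 for C1qc, both on the minus strand, printed 5′ to 3′ with the GAGGAA match (or its reverse complement) in capitals.
C1qb: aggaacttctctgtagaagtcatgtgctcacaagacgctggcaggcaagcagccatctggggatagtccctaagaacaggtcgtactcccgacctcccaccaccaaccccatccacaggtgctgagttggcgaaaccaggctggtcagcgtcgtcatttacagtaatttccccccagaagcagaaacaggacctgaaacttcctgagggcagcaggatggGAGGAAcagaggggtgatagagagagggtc
C1qc: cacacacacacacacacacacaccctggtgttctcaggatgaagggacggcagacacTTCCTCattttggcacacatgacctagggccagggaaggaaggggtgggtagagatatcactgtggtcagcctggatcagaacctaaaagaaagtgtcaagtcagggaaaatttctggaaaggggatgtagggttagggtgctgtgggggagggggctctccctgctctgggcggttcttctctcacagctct
In C1qb the match began 30 bases before the start and in C1qc 193 bases before it. A match describes these letters and is no evidence that the factor binds.

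Of the lysosomal and degradative members, Laptm5, a lysosomal membrane protein of blood-derived cells, had 3 probe sets above the floor. On U74Cv2 167764_f_at read 10423 in Null and 13972.2 in WT, a log2 ratio of -0.45 with a spread of 0.30. On U74Av2 161819_f_at read 619.9 in Null and 702.1 in WT, a log2 ratio of -0.19, and 100012_at read 765.9 in Null and 767.2 in WT, a log2 ratio of -0.01, with a spread of 0.21. The largest of these ratios came from a probe set whose suffix marks possible sharing within a gene family, and the probe set of plain design showed next to none. Cd68, the heavily glycosylated lysosomal protein of macrophages, read 425.7 in Null and 495.0 in WT with 103016_s_at, a log2 ratio of -0.23 with a spread of 0.21. Its other probe set, 162173_i_at, read 6.9 in Null and 20.4 in WT, under the floor. Both carry a suffix, so the Cd68 ratio rests on no probe set of plain design.

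The promoter windows of both genes held GAGGAA, at chr4:130913066-130913315 on the plus strand for Laptm5 and at chr11:69666171-69666420 on the minus strand for Cd68. In Laptm5 the match began 38 bases before the start, and a TATAAA match 218 bases before it. In Cd68 GAGGAA began 225 bases before the start, and TGAGTCA, a form of TGANTCA, 149 and 24 bases before it. Matches are in capitals.
Laptm5: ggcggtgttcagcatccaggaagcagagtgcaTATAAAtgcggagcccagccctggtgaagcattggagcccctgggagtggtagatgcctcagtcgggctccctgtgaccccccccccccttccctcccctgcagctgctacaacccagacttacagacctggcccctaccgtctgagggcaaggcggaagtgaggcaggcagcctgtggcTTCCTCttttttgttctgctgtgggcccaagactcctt
Cd68: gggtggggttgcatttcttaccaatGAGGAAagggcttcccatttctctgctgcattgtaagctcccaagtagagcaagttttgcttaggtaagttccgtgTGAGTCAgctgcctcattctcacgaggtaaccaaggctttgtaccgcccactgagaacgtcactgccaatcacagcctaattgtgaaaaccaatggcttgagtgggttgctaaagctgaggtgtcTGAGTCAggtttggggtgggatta
These 2 windows show that the matches differ in kind and place between members.

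Lyz2, the lysozyme of macrophages and neutrophils, read 1011.6 in Null and 1169.6 in WT with 100611_at, a log2 ratio of -0.22 with a spread of 0.15. Its other probe set, 162309_at, read 2.5 in Null and 13.9 in WT, under the floor. A probe set annotated to both Lyz1 and Lyz2, 101753_s_at, was left out of the members by the rule. It read 955.0 in Null and 1441.3 in WT, a log2 ratio of -0.60. The Paneth cell lysozyme Lyz1 was the only symbol of 139754_f_at on U74Cv2, whose suffix marks possible sharing within a gene family. That probe set read 1212.5 in Null and 656.0 in WT, a log2 ratio of 0.86 with a spread of 0.30. The other Lyz1 probe set, 169724_r_at, lay under the floor on both arrays. The lysozyme probe sets thus did not point one way, and since the 2 genes are close copies their signals may be mixed. Their promoters are shown to set the copies side by side, at chr10:117282273-117282522 for Lyz2 and chr10:117292869-117293118 for Lyz1, both on the minus strand.
Lyz2: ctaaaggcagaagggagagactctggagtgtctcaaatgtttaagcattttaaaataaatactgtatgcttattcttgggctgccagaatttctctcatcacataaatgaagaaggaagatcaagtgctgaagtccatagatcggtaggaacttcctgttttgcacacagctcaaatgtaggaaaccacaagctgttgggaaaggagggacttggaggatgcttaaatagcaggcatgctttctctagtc
Lyz1: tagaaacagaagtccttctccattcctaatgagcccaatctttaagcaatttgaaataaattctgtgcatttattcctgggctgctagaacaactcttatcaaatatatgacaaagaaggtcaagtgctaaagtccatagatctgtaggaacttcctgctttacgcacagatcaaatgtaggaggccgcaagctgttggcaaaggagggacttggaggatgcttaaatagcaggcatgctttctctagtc
Without gaps, 152 of the 250 bases were identical, or 60.8%, and 101 of the 110 next to the start, a stretch chosen after the sequences were seen, or 91.8%. Neither window held any of the 4 motifs.

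Acp5, an acid phosphatase resistant to tartrate that marks osteoclasts and activated macrophages, had the largest difference of the members, in 1 of its 2 probe sets. On U74Bv2 162543_r_at read 685.3 in Null and 1898.5 in WT, a log2 ratio of -1.47, or 2.78-fold lower in Null, with a spread of 0.24. On U74Av2 98859_at read 159.8 in Null and 184.3 in WT, a log2 ratio of -0.21 with a spread of 0.39. The probe sets share a direction and not a size, and the larger ratio came from a probe set with relaxed rules of probe choice. Of 12 other osteoclast genes listed, 9 had a probe set and 4 lay above the floor on at least 1 array, 3 lower and 1 higher in Null. Their median was -0.10, and it ranged from -0.57 to 0.20 in the alternatives. By these values 0 were 2-fold different, but only Ctsk and Clcn7 lay above the floor on both arrays. The others give bounds, which cannot show that a large difference is absent. Ctsk, the collagen-degrading cathepsin K, stood at -0.15 and Clcn7, a lysosomal chloride transporter, at -0.57, with -0.41 in its second probe set. Acp5 has several starts in RefSeq, and 1 of the 3 windows, chr9:22130599-22130848 on the minus strand, held an M-box match, TCACATGA, 91 bases before the start.
Acp5: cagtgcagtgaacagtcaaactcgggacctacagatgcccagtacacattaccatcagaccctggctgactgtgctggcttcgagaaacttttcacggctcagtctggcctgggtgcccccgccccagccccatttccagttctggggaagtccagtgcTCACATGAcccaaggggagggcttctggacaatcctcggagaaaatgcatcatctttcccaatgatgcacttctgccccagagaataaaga
Among transcription factors that bind such motifs, Tfe3 stood at -0.17 in its brightest probe set on U74Bv2 and at -0.74, -0.49 and -0.37 in its others, and Mitf lay under the floor.

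**Figure D2:**
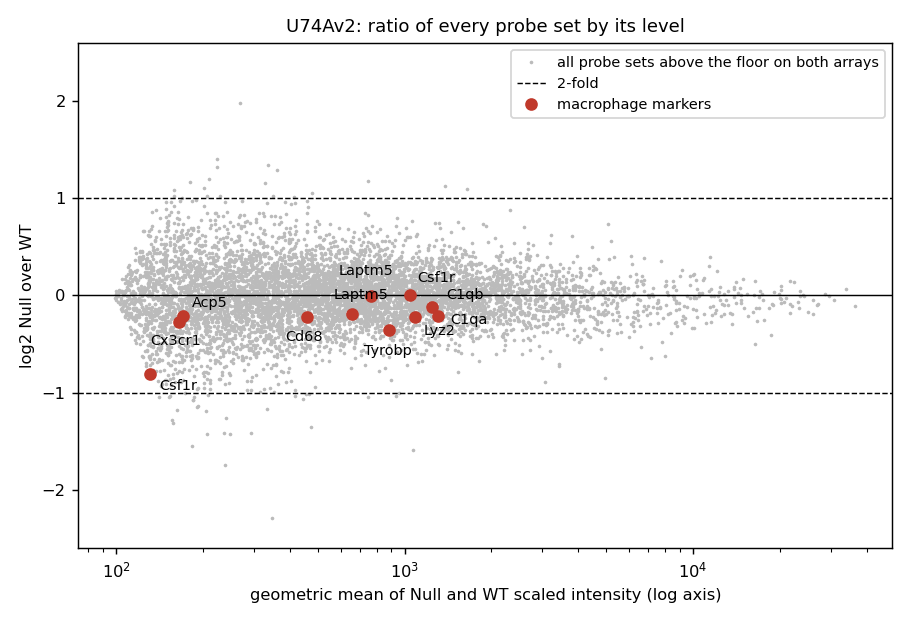
Log2 Null over WT of every probe set above the floor on both U74Av2 arrays (grey) by the geometric mean of its scaled intensities (log axis), with the 11 macrophage marker probe sets in red and dashed lines at 2-fold. The red points lie within the grey cloud, 10 of 11 below 0, between -0.81 and 0.01.

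Taken as genes, with the brightest probe set within its chip for each, 9 of 10 members were lower in Null, also without U74Cv2, and their median log2 ratio was -0.22. Over the 12447 genes above the floor 51.5% were lower and the median was -0.01. The 10 members come from the same arrays and many from the same cells, which leaves them tied to one another. On U74Av2 their summed intensity in Null, with no floor, was 88.4% of that in WT.

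Other macrophage genes were less uniform. Of 33 listed, 31 had a probe set and 22 lay above the floor on at least 1 array. Of these 14 were lower and 8 higher in Null, with a median of -0.16, but several of the lower ones were under the floor in Null and give only bounds. Among the 18 probe sets of the list above the floor on both arrays, 8 were below 0. At least 2-fold different were 5 of the 22, or 2 lower and 3 higher, where 1.63% of all genes were lower and 1.41% higher by as much. That share pools the chips, and Vsig4, Lgals3 and Fcgr1 of the 5 were read on U74Cv2. There 11.1% of probe sets above the floor on at least 1 array were 2-fold different either way, against 0.908% on U74Av2 and 1.82% on U74Bv2. Folr2, a folate receptor of resident macrophages, read 293.4 in Null and 599.8 in WT on U74Av2, a log2 ratio of -1.04 with a spread of 0.21. Vsig4, a complement receptor of resident macrophages, was under the floor in Null on U74Cv2 and so at least 2.34-fold lower. On the higher side were Lgals3, the lectin galectin-3, at 2.07 and Fcgr1, the high-affinity receptor for IgG, at 1.41, both on U74Cv2, and Csf2rb, a subunit of the GM-CSF receptor, at 1.07 on U74Bv2. Lgals3 and Csf2rb lay under the floor in their other probe sets. Another of Fcgr1 stood at 0.28, and a further one lay under the floor on both arrays. The Fcgr1 probe set at 1.41 has a suffix that marks possible sharing within a gene family. Without U74Cv2, 1 of 18 genes was 2-fold lower and 1 higher. Ptprc, the CD45 antigen of leukocytes, and the myeloid integrin chains Itgam and Itgb2 were among the 9 genes at the floor on both arrays of their chips.

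Ligands and signalling genes of the CSF1 receptor showed no common direction. Of 15 listed, 12 lay above the floor, 6 lower and 6 higher in Null, with a median of -0.06. The ligand Csf1 read 170.3 in Null and 192.9 in WT after scaling, a log2 ratio of -0.18 with a spread of 0.39, and Il34 was under the floor in Null. Fes, a tyrosine kinase of myeloid cells, was at the floor in WT on U74Cv2 and at least 5.29-fold higher in Null. That probe set has a suffix that marks possible sharing within a gene family. In its U74Av2 probe set Fes was at the floor on both arrays. Of 18 chemokines and receptors 7 lay above the floor, 4 lower and 3 higher, with a median of -0.05. Ccl24, an eosinophil-attracting chemokine that macrophages make, stood at -0.50, and Cx3cl1, the ligand of the member Cx3cr1, at 0.03.

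Complement genes beyond the members were more often lower than higher in Null. Of 20 listed, C1qc among them, 13 lay above the floor, 9 lower and 4 higher in Null, with a median of -0.21 and 0 at 2-fold. Over all genes 51.5% were lower. Several of the lower complement genes were under the floor in Null and give only bounds. Among the 13 probe sets of the list above the floor on both arrays, 8 were below 0. C1qc stood at -0.41, as given above, and Masp1, a protease of the lectin pathway, at 0.51 on U74Cv2. Another Masp1 probe set on that chip was under the floor in Null and at least 1.64-fold lower. Genes of MHC class II presentation had a median of -0.24 over 6, with 4 lower. H2-Ab1, a class II beta chain, was under the floor in Null at 83.2, against 196.9 in WT, so at least 2-fold lower.

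Of 11 myeloid transcription factors above the floor, 4 were lower and 7 higher in Null, with a median of 0.05. Spi1, which encodes PU.1, stood at -0.19 with a spread of 0.39. Cbfb, a partner of RUNX factors, stood at 0.03, with -0.20 in its second probe set. General lysosome genes, which all cell types use, had a median of -0.06 over 18, with 12 lower, 6 higher and 0 at 2-fold. Lamp1, a lysosomal membrane protein, stood at -0.01 and Ctsl, the protease cathepsin L, at -0.14.

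**Figure D3:**
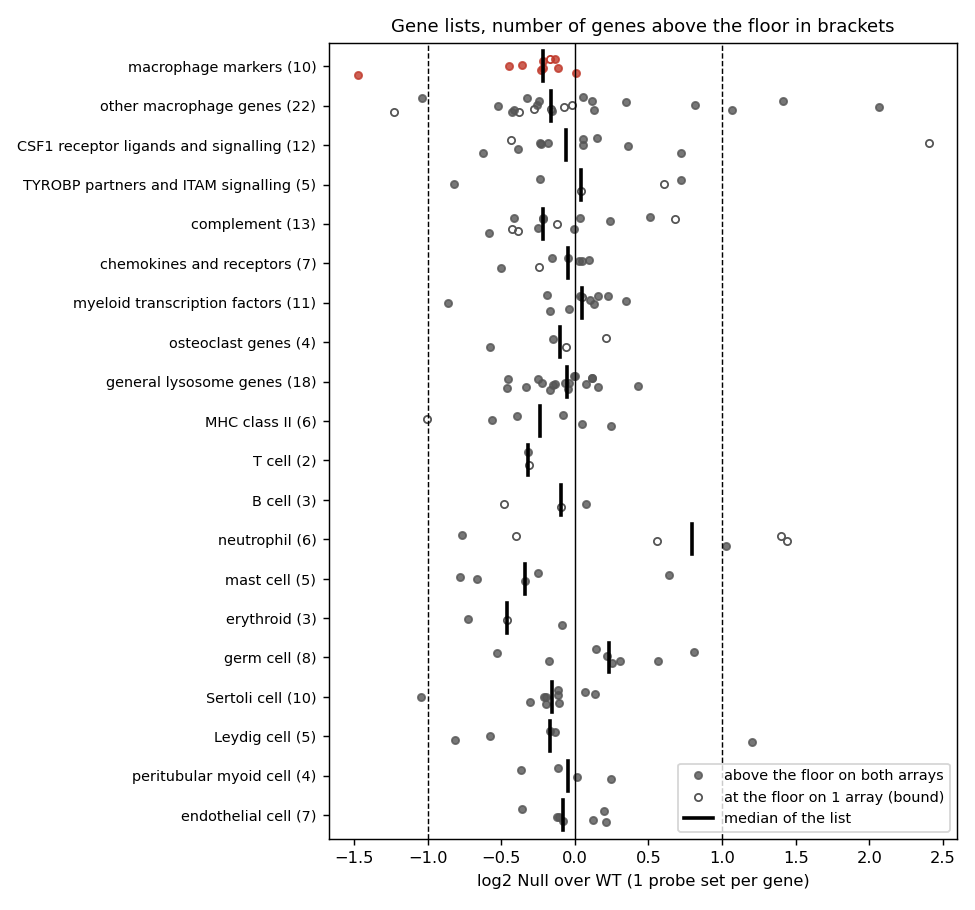
Log2 Null over WT of each gene, by its brightest probe set within its chip, in the macrophage markers (red) and 19 other lists (grey), with open circles for bounds, black bars for medians and dashed lines at 2-fold. The macrophage median lies at -0.22, the neutrophil median at 0.79 and the germ cell median at 0.24.

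Markers of other cells also differed between the arrays, and their part in the macrophage values was not tested. Neutrophil granule genes went the opposite way, with a median of 0.79 over the 6 of 10 above the floor, 4 of them higher in Null. S100a8, a calcium-binding protein of neutrophils, read 268.3 in Null and 23.7 in WT, at least 2.71-fold higher in Null. Ngp, a granule protein, read 261.5 in Null and 24.7 in WT, at least 2.64-fold higher in Null. Camp, the precursor of an antimicrobial peptide, read 502.4 in Null and 245.5 in WT, a log2 ratio of 1.02. Mpo, Ltf, Lcn2 and Mmp8 were at the floor on both arrays, and Elane and Prtn3 were lower in Null. The summed intensity of 6 genes on U74Av2, with no floor, was 1377 in Null and 657 in WT, but 4 of the 6 lay under the floor on 1 array, so the ratio of the sums is no exact fold. With those values raised to the floor the sum was 1382 in Null and 862 in WT, or 160% of WT, and without the genes at least 2-fold different it was 96.8% of WT.

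Germ cell markers were present and mostly higher in Null, with 6 of 8 above 0 and a median of 0.24. Uchl1, a ubiquitin hydrolase of spermatogonia, read 6711.5 in Null and 6045.1 in WT, while Tex101, a germ cell surface protein, was lower at -0.53. Their summed intensity on U74Av2 over 5 genes was 16057 in Null and 13170 in WT. The Sertoli list had a median of -0.16 with 8 of 10 genes lower in Null, and Rhox5, a homeobox gene of Sertoli cells, read 523.7 in Null and 1071.6 in WT. Its summed intensity over 9 genes was 37006 in Null and 42586 in WT, or 86.9% of WT, beside 88.4% for the macrophage markers. The Leydig list, from cells that share the interstitium, had a median of -0.17 with 4 of 5 genes lower and stood at 86.7% of WT. Within it Hsd17b3, an enzyme of testosterone synthesis, was at least 2-fold higher, at 1.20, and without it the Leydig sum was 73.5% of WT. The sums of the other cell types ranged wider on the same arrays, from 60.8% for erythroid and 72.9% for mast cell genes to 94.4% for peritubular myoid and 105% for endothelial genes. Such sums weigh bright probe sets most and are no measure of cell number. The erythroid sum holds only 2 genes, and Hba-a1 alone made 2681 of its 2771 in Null.

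**Figure D4:**
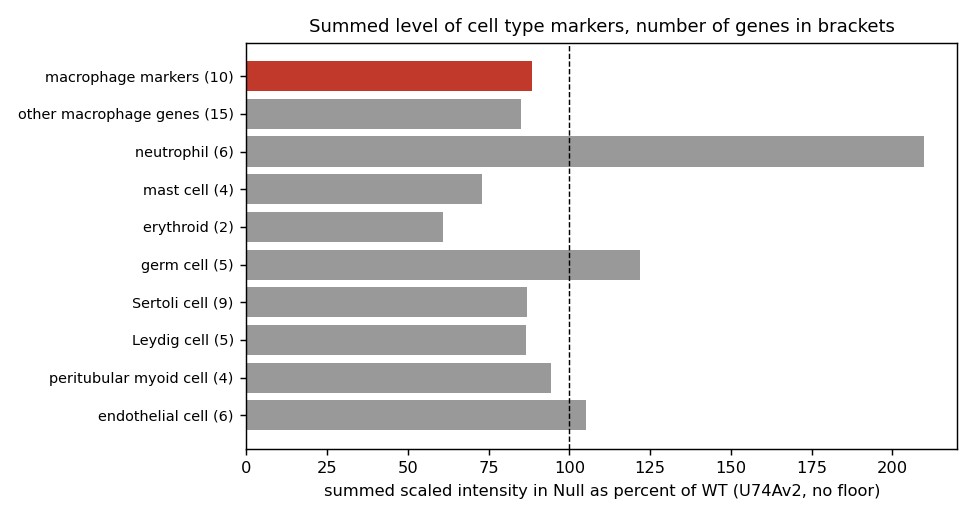
Summed scaled intensity in Null as percent of WT on U74Av2 for lists of cell type markers, 1 probe set per gene, with the number of genes in brackets and a dashed line at equal levels; each sum rests on 1 array per genotype. The macrophage markers stand at 88.4%, beside 60.8% for erythroid, 72.9% for mast cell, 86.7% for Leydig, 86.9% for Sertoli, 94.4% for peritubular myoid, 105% for endothelial and 122% for germ cell markers; the neutrophil bar is no exact fold, since 4 of its 6 genes lay under the floor on 1 array, and with values raised to the floor it would stand at 160%.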

How the data were processed

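RNA of 6 arrays was analysed, 1 Null and 1 WT on each of 3 chips, grouped by the sample titles. The values are linear intensities per probe set as the authors deposited them, all above 0; their software and background correction were not given in the sources used here. After the lowest and highest 2% were removed, the mean was 500.3 on each U74Av2 array, 500.1 on each U74Bv2 array and 500.3 on each U74Cv2 array, so the authors had scaled each array. No detection calls were used. Genes were named from GEO's platform annotation for 10833 of 12422, 10581 of 12411 and 7717 of 11868 probe sets, and those with several symbols stayed unnamed. Each of these chips also held 66 control probe sets, which were set aside. Null was divided by the median ratio over the upper 50% of mean rank, values were raised to the floor, and log2 of Null over WT was taken. The spread is the scaled median absolute difference between probe sets of a gene on 1 chip, divided by the square root of 2, in 3 level classes. For genes, the probe set of highest level percentile in its chip was used. No build is named for the arrays, so coordinates are given only for RefSeq promoters.

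The members, lists and rules were chosen with earlier results of these data known. All member probe sets are named. From each other list, genes at least 2-fold different were named, at most 4 by brightness, or otherwise the 2 brightest. Further genes (Vsig4, Ptprc, Itgam, Itgb2, Csf1, Il34, Spi1, Mitf, Lyz1, Mpo, Ltf, Lcn2, Mmp8, Elane and Prtn3) were singled out after their values were seen, as were the motifs. Some genes are in more than 1 list. Tools were Python 3.11.15, pandas 2.3.3, numpy 2.4.6, statsmodels 0.14.6 and matplotlib 3.10.9. The ratios were tested on simulated data in which 200 probe sets per chip were changed 4-fold, and 100% of them were recovered on U74Av2 (12422 probe sets), U74Bv2 (12411) and U74Cv2 (11868). That simulation holds no spread between animals. It changed only probe sets above the 60th percentile of level, and by more than the 2-fold threshold. It therefore says nothing of dim probe sets or of differences as small as those of most members. Alternatives tried were no scaling, quantile normalization, a loess fit, lower and higher floors (20th, 60th percentile) or none, thresholds of 1.5-fold and 3-fold, the mean of a gene's probe sets, probe sets with no suffix, and U74Av2 alone. Leaving out U74Cv2, and leaving out suffixed probe sets from the member counts, were chosen after seeing the data, as were list sums with values raised to the floor or without genes at least 2-fold different; the sums otherwise use values with no floor.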

Additional observations from a re-analysis of the deposited data

How the results depend on the processing

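The median log2 ratio of the 10 member genes stayed below 0 in all 10 alternatives that gave it a value, between -0.23 after quantile normalization and -0.17 with probe sets of no suffix, and was -0.22 without U74Cv2. All 81 recomputed ratios of the 14 member probe sets moved by less than the spread. A change of floor, however, cannot alter the ratio of a probe set above it on both arrays. Leaving out the scaling shifted all ratios of a chip alike, by at most 0.02. Only quantile normalization and the loess fit could thus change these ratios unevenly. Throughout, 13 of the 14 kept their sign, and the other was Csf1r 104354_at, near 0. Without suffixed probe sets 8 of 9 member probe sets were below 0. The count at least 2-fold different was 1, and it became 2 with a lower floor (20th percentile, which added Adgre1), 4 with no floor, 2 at 1.5-fold, 0 at 3-fold and 0 without suffixed probe sets. The 3 added without a floor, of Adgre1, Cd68 and Lyz2, are dim. Of 19 other lists, 15 had a median below 0, and 12 to 15 in the alternatives. Of their 189 recomputed medians 11 moved by more than the spread, and 12 of the 19 kept their sign throughout. The germ cell, neutrophil and myeloid factor medians stayed above 0, and those of other macrophage genes and complement below. Raising values to the floor left the macrophage sum at 89.3% of WT and moved the neutrophil sum to 160%. No paired analysis was possible because each group has 1 array per chip, and for the same reason no array could be left out. Signal near the floor limits Adgre1 and the second probe sets of Csf1r, Cd68, C1qb and Lyz2.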

Other observations

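Other blood cell markers were mostly lower in Null or at the floor. Mast cell genes had a median of -0.34 over the 5 of 7 above the floor, 4 of them lower in Null. Tpsb2, a mast cell tryptase, stood at -0.25 and at 0.28 in its second probe set, and Ms4a2, a chain of the IgE receptor, at 0.64 on U74Cv2. The 3 erythroid genes above the floor were all lower in Null, with a median of -0.46. Hba-a1, an alpha globin gene, read 2697.2 in Null and 4424.1 in WT, a log2 ratio of -0.72, and Slc4a1, the anion exchanger of red cells, stood at -0.09 on U74Cv2. T cell genes lay at the floor on both arrays for 6 of 8. Cd3d, a chain of the T cell receptor complex, stood at -0.32 on U74Cv2, with its probe sets on U74Av2 under the floor, and the coreceptor Cd4 was at least 1.24-fold lower in Null. Of 5 B cell genes 3 lay above the floor, with a median of -0.09. Ms4a1, the CD20 antigen, stood at 0.07 and Cd79b, a chain of the B cell receptor complex, was at least 1.07-fold lower in Null.

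Over 4 peritubular myoid genes the median was -0.05. Mylk, a myosin kinase of smooth muscle, stood at -0.37 in its brightest probe set, with -0.16 and -0.14 in its others above the floor. Acta2, smooth muscle actin, stood at -0.11 on U74Av2 and the opposite way at 0.67 on U74Cv2, where the spread was 0.54. Endothelial genes had a median of -0.08 over 7, with Eng, a TGF-beta coreceptor, at 0.12 and Egfl7, a secreted endothelial factor, at -0.36.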
